A study of Mus musculus with 9 samples.

Results

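Genes of the hemidesmosome and the epidermal basement membrane were followed in keratinocytes from UVB-exposed mouse skin. The set held 9 genes of the 55536 in the deposited table, taken by name: Itga6, Itgb4, Col17a1, Plec, Dst, Lama3, Lamb3, Col7a1 and Itga3. All 9 were above 0 in every library and passed the filter on low values (10 normalized counts or more in 3 or more libraries), which kept 14695 genes for testing. The animals were Hmga2-/- mice, K5H2 mice and WT mice, with 3 of each. The sources used here do not say what K5H2 stands for or which bases of Hmga2 are missing in Hmga2-/- mice. Every mouse was 8 weeks old with its hair follicles at rest. The back skin of every animal, WT included, was given UVB, as 2 doses of 20 mJ/cm2 within 3 days. Skin was harvested 24 h after the final dose, so no unirradiated skin is compared here. The epidermis was lifted after a night on 0.25% trypsin, and its RNA gave 1 library per animal.

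Basal keratinocytes hold the epidermis to the dermis with hemidesmosomes. In each of these, the integrin pair alpha 6 beta 4 and the transmembrane collagen XVII grip laminin-332 outside the cell, while the plakins plectin and BPAG1 tie them to the keratin filaments inside. Laminin-332 in turn binds collagen VII, whose anchoring fibrils reach into the dermis, and loss of these proteins gives skin blistering. In mice, collagen XVII of hair follicle stem cells is also known to be needed to keep melanocyte stem cells.

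The 9 genes did not move as one block. On average, Col7a1, Dst, Lamb3, Col17a1 and Plec were higher, and Lama3, Itga3, Itga6 and Itgb4 lower, in both Hmga2-/- and K5H2 keratinocytes than in WT keratinocytes, but leaving out 1 library turned the sign of Col17a1 and Plec in Hmga2-/- and of Itga6 and Lama3 in K5H2, and Plec also turned with libraries scaled to equal totals. None of the 9 passed the test in any of the 3 comparisons (limma-trend, Benjamini-Hochberg adjusted p under 0.05 over 14695 genes). In Hmga2-/- against WT 0 of 9 were called, where 0.728% of all genes tested were called (0.109% higher and 0.619% lower). K5H2 against WT also gave 0 of 9, beside 1.28% of all genes (0.653% higher and 0.626% lower). K5H2 against Hmga2-/- gave 0 of 9, beside 0.497% (0.361% higher and 0.136% lower). At an unadjusted p under 0.05 there were 4 members in Hmga2-/- against WT (Col7a1 and Lamb3 higher, Lama3 and Itga3 lower; 23.7% of all genes), 2 in K5H2 against WT (Dst and Col7a1, both higher; 18% of all genes) and 0 in K5H2 against Hmga2-/- (21.1%). limma's voom on approximate reads also called 0 of 9 in Hmga2-/- against WT (0.286% of all genes), in K5H2 against WT (2.06%) and in K5H2 against Hmga2-/- (1.24%). In the authors' deposited table the adjusted p was under 0.05 for Lama3 in Hmga2-/- against WT (7.75% of the same genes), for Dst in K5H2 against WT (6.42%) and for no member in K5H2 against Hmga2-/- (4.22%). The 2 comparisons with WT share the WT animals, so their common direction is not independent.

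The libraries held between 15.4 and 41.5 M approximate reads in genes, the fewest in Hmga2-/- 3, where 1 read was worth 2.34 normalized counts. Reads from mitochondrial genes made up 0.279% of Hmga2-/- 3 and 0.502% of Hmga2-/- 2, against 0.983% to 2.15% in the other libraries. Principal component 1 took up 36.6% of the variance, and on it Hmga2-/- 3 lay at -76.4 and WT 1 at 84.6, the outermost libraries at either end. Values without them are also given for most members. Hmga2, the targeted gene, was listed at 3, 9 and 7 normalized counts in Hmga2-/- libraries, 4, 11 and 0 in K5H2 libraries and 346, 11 and 56 in WT libraries. All Hmga2-/- libraries lay below all WT libraries, as for 14.9% of all genes tested, but WT 2 was no higher than K5H2 2. The closest gap, 9 in Hmga2-/- 2 against 11 in WT 2, was narrow. limma did not call Hmga2 in Hmga2-/- against WT (log2 difference -3.18, adjusted p = 0.152) or in K5H2 against WT (-3.98, adjusted p = 0.116). The authors' deposited table gives adjusted p of 0.0377 and 0.021 there. The basal markers Krt5, Krt14, Krt15 and Trp63 were high throughout, with sums of 1289460 to 1741290 normalized counts in Hmga2-/-, 1102982 to 1350487 in K5H2 and 1444502 to 1693420 in WT libraries, so every K5H2 sum lay below every WT sum. Within that sum the genes did not share a direction. On the log2 scale Krt5 differed from WT by 0.03 in Hmga2-/- and -0.13 in K5H2. Krt14 differed by -0.44 in Hmga2-/- and -0.73 in K5H2. Trp63 differed by -0.06 in Hmga2-/- and 0.12 in K5H2 (limma adjusted p = 0.852 and 0.753). Krt15 was looked at singly after its values were seen. Krt15 had 180655, 147214 and 317010 normalized counts in Hmga2-/-, 164810, 127828 and 128342 in K5H2 and 31111, 75995 and 66044 in WT libraries, so that every mutant library lay above every WT library. Its log2 difference was 1.92 in Hmga2-/- against WT (adjusted p = 0.0552, and 1.52 without WT 1) and 1.37 in K5H2 against WT (adjusted p = 0.106, or 0.0498 under voom, and 0.98 without WT 1). In such bulk RNA, fewer cells of a type and less RNA per cell cannot be told apart.

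For 5 of the 9 genes, RefSeq sequence was at hand for the 250 bases before an annotated start, on GRCm38.p6. The stretches below belong to the 4 genes among them with the higher means in both mutants and, for contrast, to Itga3, whose means were lower. Each is written 5′ to 3′ on the gene's strand and stops before the first annotated exon base. Capitals mark motifs found on either strand. The GC box was read as GGGCGG. The TATA box was read as TATAAA. A short AT run of the kind HMGA proteins favour was read as AATT. The AP-1 motif was read as TGANTCA. No match of one of these motifs overlaps a match of another in the printed sequences.

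Col7a1 (chr9:108953336-108953585, plus strand): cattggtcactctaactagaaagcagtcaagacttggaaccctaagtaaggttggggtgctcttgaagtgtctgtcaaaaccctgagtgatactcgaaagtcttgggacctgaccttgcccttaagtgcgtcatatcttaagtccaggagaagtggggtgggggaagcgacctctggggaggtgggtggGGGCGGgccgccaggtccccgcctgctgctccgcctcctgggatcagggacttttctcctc
Dst, first window (chr1:34011345-34011594, plus strand): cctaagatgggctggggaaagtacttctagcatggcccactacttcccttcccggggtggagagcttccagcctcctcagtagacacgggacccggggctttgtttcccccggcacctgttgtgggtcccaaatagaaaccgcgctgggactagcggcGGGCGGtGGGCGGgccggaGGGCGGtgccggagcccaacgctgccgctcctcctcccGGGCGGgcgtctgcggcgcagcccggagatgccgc
Dst, second window (chr1:34160010-34160259, plus strand): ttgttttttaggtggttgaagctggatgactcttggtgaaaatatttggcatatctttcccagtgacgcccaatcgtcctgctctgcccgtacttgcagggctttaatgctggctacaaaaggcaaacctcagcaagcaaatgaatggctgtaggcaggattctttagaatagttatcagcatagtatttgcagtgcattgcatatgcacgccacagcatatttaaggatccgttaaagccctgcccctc
Col17a1 (chr19:47692095-47692292, minus strand): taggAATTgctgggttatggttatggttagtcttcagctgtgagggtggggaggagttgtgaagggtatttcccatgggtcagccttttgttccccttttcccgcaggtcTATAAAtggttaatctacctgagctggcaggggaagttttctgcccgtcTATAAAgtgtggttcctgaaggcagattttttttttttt
Lamb3, first of 2 windows (chr1:193301744-193301992, plus strand): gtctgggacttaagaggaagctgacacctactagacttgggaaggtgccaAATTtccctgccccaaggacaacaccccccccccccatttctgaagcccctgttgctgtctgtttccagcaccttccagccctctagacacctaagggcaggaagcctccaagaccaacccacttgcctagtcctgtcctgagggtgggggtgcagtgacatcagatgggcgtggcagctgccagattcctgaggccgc
Itga3, second of 2 windows (chr11:95076802-95076964, minus strand): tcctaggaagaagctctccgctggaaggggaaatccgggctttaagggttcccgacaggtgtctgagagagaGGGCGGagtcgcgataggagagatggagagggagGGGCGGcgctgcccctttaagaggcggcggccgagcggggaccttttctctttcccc

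Motifs and composition were read over the whole 250 bases, in 8 windows of these 5 genes. The 2 starts of Dst were unlike in composition. Its first window was 31.2% A or T with 4 GC boxes, and its second was 54.8% A or T with none, beside a median of 47.6% over 32851 windows of the table. Gene-level values add up transcripts from every start. The Col17a1 window had 2 TATA boxes, a motif found in 12.4% of all windows, and was the only one of 8 member windows with it. AATT was in the windows of Col17a1 and Lamb3, and in 47.1% of all windows. GC boxes were in 4 of 8 member windows and in 32.7% of all windows, and the 4 belonged to Col7a1, Dst and Itga3. The AP-1 letters were in 0 of 8 member windows and in 6.75% of all windows. Of motifs left in lower case, the E-box CANNTG was in 7 of 8 member windows and in 66.2% of all windows. CCAAT was in 4 of 8 and in 33.8%. TGACG, found in cAMP response elements, was in 2 of 8 and in 17.8%. No motif of this search was in a window of each of the 4 printed genes with the higher means and missing from Itga3. The genes were sorted by differences of which none passed the test, with Itga3 alone on the other side. The contrast therefore cannot bear on those differences. A match of letters is a description and not a bound site.

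Set against exon length, the 9 genes spanned a wide range of levels. Levels are given as normalized counts per kb of exon, averaged over the 9 libraries. The exons of all annotated transcripts of a gene were merged for this length. A gene whose cells make a shorter transcript is therefore placed too low, and which transcripts these cells made was not tested. Col17a1 stood at 12100 per kb, followed by Itgb4 at 2830, Lamb3 at 1670, Plec at 1410, Itga6 at 1360, Dst at 1100, Itga3 at 966, Col7a1 at 719 and Lama3 at 363. Col17a1 was the one gene clear of its neighbour, since its lowest library (8770 per kb) exceeded the highest Itgb4 library (4770 per kb). Every other pair of neighbours in that order overlapped. In all 9 libraries Itgb4 was above Lamb3, whereas Plec was above Itga6 in only 5 of 9. Dst has the longest summed exons, at 41155 bases, and Itga3 the shortest, at 5710.

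**Figure D1:**
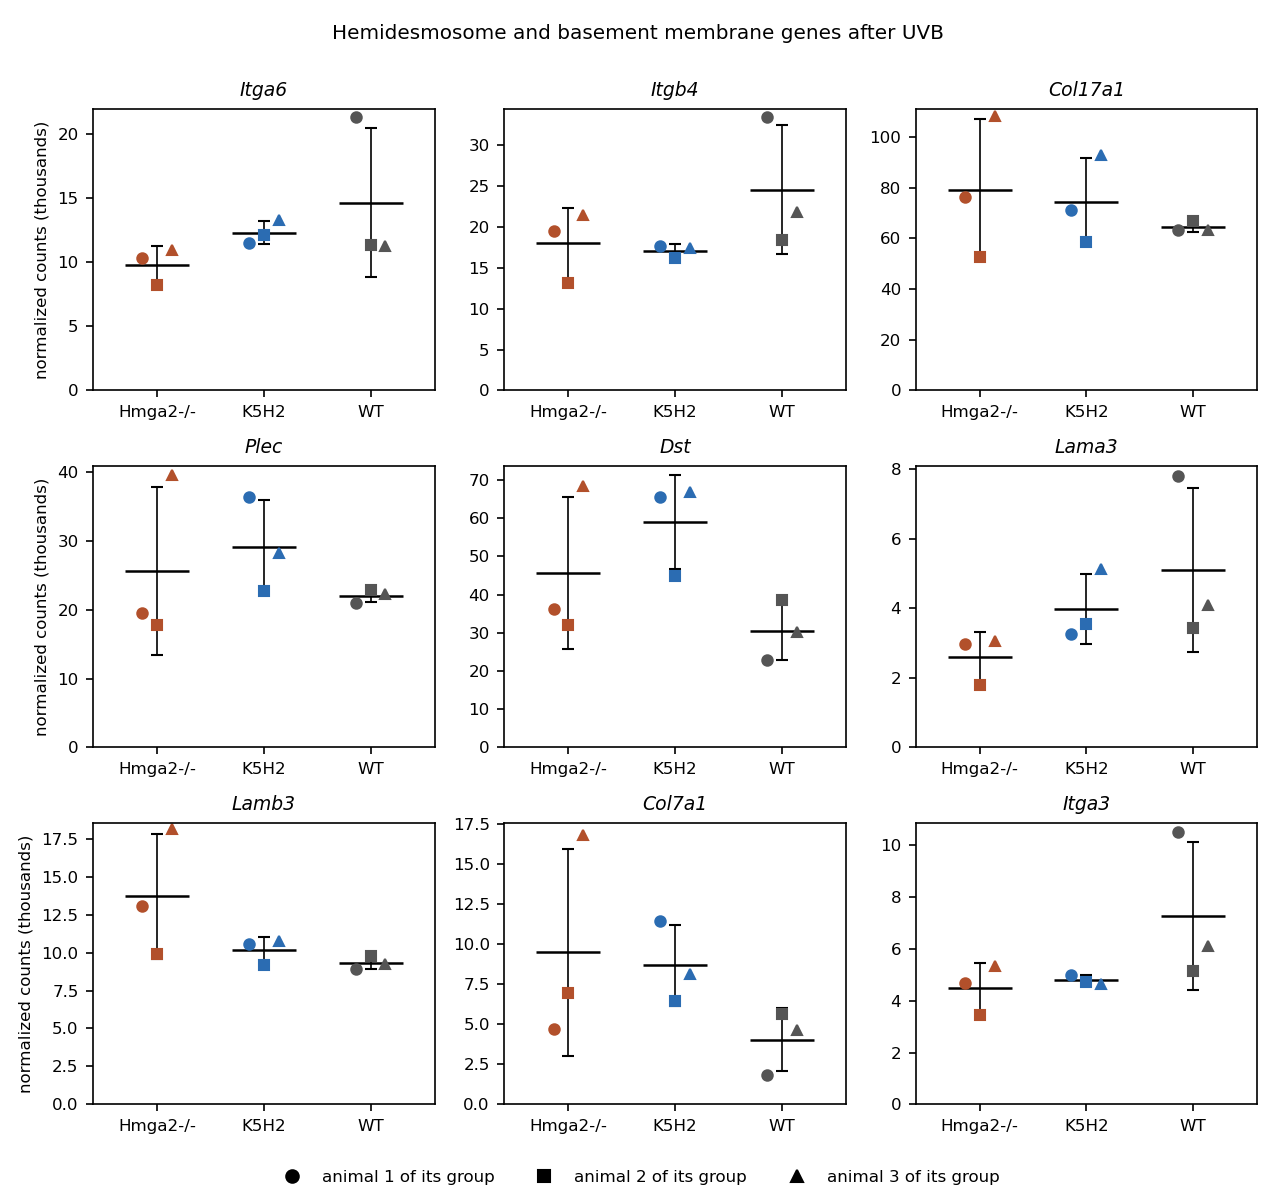
Normalized counts (vertical axis, in units of 1000, from 0) of the 9 genes in Hmga2-/-, K5H2 and WT keratinocytes; each point is 1 animal, bars are group means and whiskers ± SD (n = 3). WT 1 is the highest point of Itga6, Itgb4, Lama3 and Itga3, and Hmga2-/- 3 the highest of Col17a1, Plec, Lamb3, Dst and Col7a1.

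Itga6 and Itgb4 encode the receptor at the core of the hemidesmosome. Itga6, at chr2:71745616-71858416 (GENCODE, GRCm38), had 10317, 8200 and 10976 normalized counts in Hmga2-/- keratinocytes, 11507, 12146 and 13282 in K5H2 keratinocytes and 21357, 11364 and 11242 in WT keratinocytes. Every Hmga2-/- library lay below every K5H2 and every WT library, although the closest gap, between 10976 in Hmga2-/- 3 and 11242 in WT 3, was narrow. The log2 difference was -0.52 in Hmga2-/- against WT (SE 0.241, adjusted p = 0.22) and 0.33 in K5H2 against Hmga2-/- (adjusted p = 0.439). WT 1 carried much of the first, which was -0.21 without it. In K5H2 against WT the difference was -0.19 with WT 1 and 0.12 without, so its sign turned on that library. Itgb4, at chr11:115974709-116008412, had 19509, 13102 and 21393 normalized counts in Hmga2-/-, 17698, 16134 and 17399 in K5H2 and 33459, 18443 and 21769 in WT keratinocytes. All K5H2 values were below all WT values, while Hmga2-/- and WT values overlapped. Its log2 difference was -0.48 in K5H2 against WT (SE 0.247, adjusted p = 0.334) and -0.43 in Hmga2-/- against WT (adjusted p = 0.297), and without WT 1 it was -0.23 in K5H2 and -0.19 in Hmga2-/-.

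Col17a1 encodes collagen XVII and had the highest level of the 9 per kb of exon. At chr19:47646344-47692094, it had 76386, 52703 and 108366 normalized counts in Hmga2-/-, 71220, 58701 and 92905 in K5H2 and 63446, 66912 and 63250 in WT keratinocytes. The WT animals lay close together, and both mutant groups spread to either side of them. Group means were 79152 ± 27934 in Hmga2-/-, 74275 ± 17306 in K5H2 and 64536 ± 2060 in WT (SD, n = 3 each). The log2 difference was 0.23 in Hmga2-/- against WT (95% interval -0.40 to 0.86, adjusted p = 0.623) and 0.18 in K5H2 against WT (-0.45 to 0.81, adjusted p = 0.775). Without Hmga2-/- 3 the first was -0.02. The intervals reach from a decrease to an increase, so no direction was resolved for Col17a1 with 3 animals per group.

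The plakins Plec and Dst anchor keratin filaments to the hemidesmosome. Dst, at chr1:33908225-34308661, had 36287, 32098 and 68471 normalized counts in Hmga2-/-, 65557, 44848 and 66734 in K5H2 and 22986, 38456 and 30267 in WT keratinocytes. Each K5H2 library exceeded each WT library, and Hmga2-/- libraries lay on both sides of the highest WT library. The K5H2 mean was 59046 ± 12310, against 30570 ± 7739 in WT (SD, n = 3 each). The fitted log2 difference of 0.96, a fold of 1.94, had a 95% interval of 0.26 to 1.65 and missed the threshold over all genes (SE 0.314, adjusted p = 0.148), and was 0.77 without WT 1. The authors' deposited table gives Dst a log2 fold change of 0.95 there with an adjusted p of 0.0379. In Hmga2-/- against WT the difference was 0.53 (adjusted p = 0.314), with 0.19 without Hmga2-/- 3 and 0 without both Hmga2-/- 3 and WT 1. Plec, at chr15:76170974-76232574, had 19588, 17710 and 39643 normalized counts in Hmga2-/-, 36327, 22746 and 28271 in K5H2 and 20955, 22866 and 22301 in WT keratinocytes. Hmga2-/- 3 lay above every WT library and the other Hmga2-/- animals below, and K5H2 2 lay within the WT range. The log2 difference was 0.38 in K5H2 against WT (adjusted p = 0.52) and 0.12 in Hmga2-/- against WT (adjusted p = 0.818), the second of which was -0.24 without Hmga2-/- 3, -0.04 with libraries scaled to equal totals and -0.03 under voom. Parp10 overlaps Plec on the same strand and averaged 1000 normalized counts over the 9 libraries.

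Genes with long merged exons as a class also differed between these libraries. The 1257 tested genes with at least 10 kb of exon, among them Dst, Plec, Lama3 and Col7a1, had median log2 differences of -0.18 in Hmga2-/- against WT, 0.12 in K5H2 against WT and 0.32 in K5H2 against Hmga2-/-. Over all genes the median was -0.01 in Hmga2-/- against WT, -0.02 in K5H2 against WT and 0.01 in K5H2 against Hmga2-/-. The part of length in the member values was not tested.

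Lama3 and Lamb3 encode the alpha 3 and beta 3 chains of laminin-332, and their differences in Hmga2-/- against WT had opposite signs, neither past the threshold. Lama3, at chr18:12333819-12583013, had 2984, 1785 and 3066 normalized counts in Hmga2-/-, 3248, 3538 and 5123 in K5H2 and 7802, 3418 and 4098 in WT keratinocytes. All Hmga2-/- values lay below all K5H2 values and all WT values. Its mean was 2612 ± 717 in Hmga2-/- and 5106 ± 2359 in WT (SD, n = 3 each). The fitted log2 difference was -0.91, a fold of 0.531 (95% interval -1.61 to -0.21, SE 0.317, adjusted p = 0.139). Of the 27 member differences, this one came nearest to the threshold under an alternative, at an adjusted p of 0.0705 without WT 2, and without WT 1 it was -0.56. The authors' deposited table gives -0.97 with an adjusted p of 0.0451. K5H2 against Hmga2-/- gave 0.62 (adjusted p = 0.286), and K5H2 against WT gave -0.30 (adjusted p = 0.649), or 0.06 without WT 1. Lamb3, at chr1:193207699-193343878, had 13095, 9894 and 18102 normalized counts in Hmga2-/-, 10578, 9209 and 10737 in K5H2 and 8948, 9742 and 9275 in WT keratinocytes. Each Hmga2-/- library was above each WT library, though Hmga2-/- 2 came close to WT 2. The Lamb3 log2 difference was 0.51 in Hmga2-/- against WT (95% interval 0.06 to 0.96, SE 0.203, adjusted p = 0.171), 0.29 without Hmga2-/- 3 and 0.26 without both Hmga2-/- 3 and WT 1. K5H2 and WT libraries overlapped for Lamb3 (0.12, adjusted p = 0.779).

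Col7a1 encodes collagen VII, the building block of anchoring fibrils, and had the widest spread of the 9 over animals, from -1.77 in WT 1 to 1.41 in Hmga2-/- 3 around its mean on the log2 scale. At chr9:108953586-108984875, it had 4702, 6946 and 16832 normalized counts in Hmga2-/-, 11414, 6450 and 8135 in K5H2 and 1848, 5633 and 4651 in WT keratinocytes. All K5H2 libraries were above all WT libraries, but Hmga2-/- 1 lay inside the WT range. The log2 difference was 1.17 in Hmga2-/- against WT (SE 0.487, adjusted p = 0.185) and 1.21 in K5H2 against WT (SE 0.487, adjusted p = 0.227), and 0.04 in K5H2 against Hmga2-/- (95% interval -1.03 to 1.12). Without both of those animals, the difference was 0.16 in Hmga2-/- against WT and 0.72 in K5H2 against WT.

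Itga3 encodes the integrin alpha 3, which pairs with beta 1 and binds laminin-332 outside hemidesmosomes. At chr11:95044474-95076801, it had 4683, 3450 and 5356 normalized counts in Hmga2-/-, 5005, 4718 and 4637 in K5H2 and 10530, 5164 and 6111 in WT keratinocytes. K5H2 values were all below WT values, and Hmga2-/- 3 reached above WT 2. The log2 difference was -0.65 in Hmga2-/- against WT (SE 0.25, adjusted p = 0.164), or -0.34 without WT 1, and -0.53 in K5H2 against WT (adjusted p = 0.293), and -0.23 in K5H2 without WT 1. Its partner Itgb1 had 4725, 4293 and 4324 normalized counts in Hmga2-/-, 5206, 5284 and 5294 in K5H2 and 11250, 4971 and 5408 in WT keratinocytes (-0.60 in Hmga2-/- against WT, adjusted p = 0.195, and -0.22 without WT 1). WT 1 was the highest library for both subunits. Cd151, a tetraspanin that binds these integrins, differed by 0.10 in Hmga2-/- against WT (adjusted p = 0.702) and by 0.03 in K5H2 against WT (adjusted p = 0.934). The keratins that hemidesmosomes hold, Krt5 and Krt14, did not pass the test either. Krt5 differed by 0.03 in Hmga2-/- against WT (adjusted p = 0.967) and by -0.13 in K5H2 against WT (adjusted p = 0.873). Krt14 differed by -0.44 in Hmga2-/- against WT (adjusted p = 0.512) and by -0.73 in K5H2 against WT (adjusted p = 0.37). Krt14 had 631250, 669146 and 778826 normalized counts in Hmga2-/-, 684573, 605915 and 434658 in K5H2 and 992163, 790172 and 1053123 in WT libraries. All libraries of both mutants thus lay below all WT libraries for Krt14, and all K5H2 libraries did so for Krt5. Of all genes tested, 14.9% were apart and lower in Hmga2-/- against WT and 14.1% in K5H2 against WT.

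**Figure D2:**
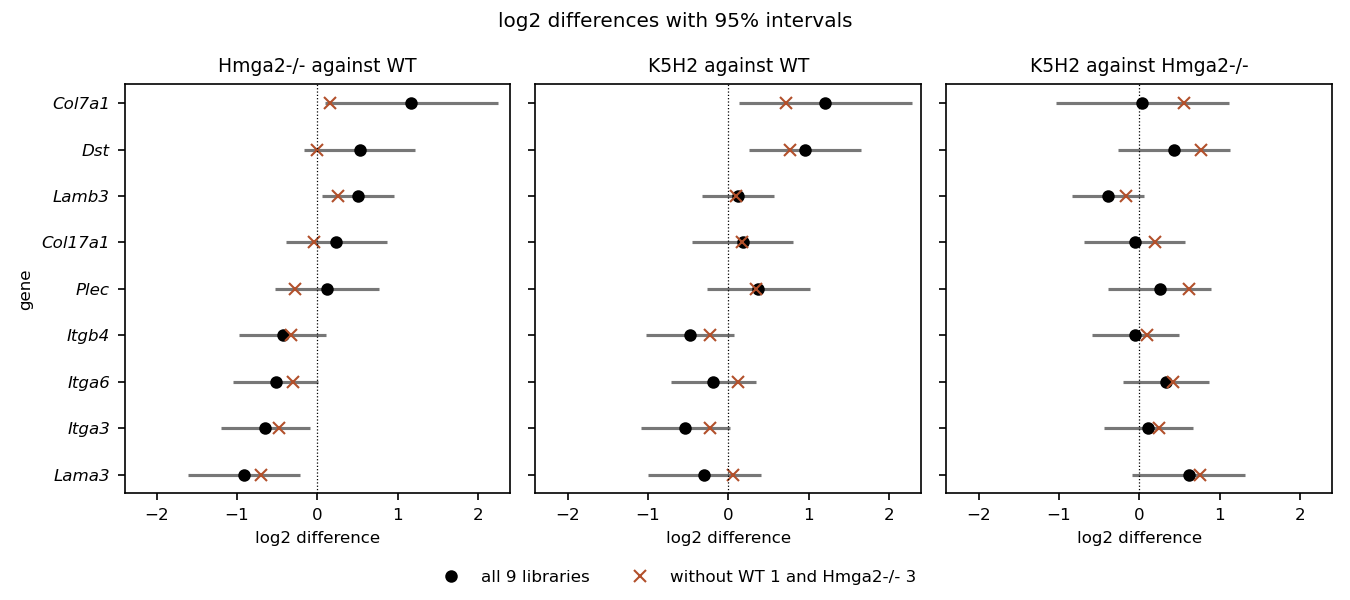
Log2 differences of the 9 genes (horizontal axis) in the 3 comparisons; dots are all 9 libraries with 95% intervals, and crosses leave out WT 1 and Hmga2-/- 3. For Col7a1 in Hmga2-/- against WT the dot is at 1.17 and the cross at 0.16, while in K5H2 against WT Dst is at 0.96 and 0.77.

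Counted over the 9 genes, 3 did not overlap between Hmga2-/- and WT libraries, where 29.7% of all genes tested had groups apart. Lamb3 was the 1 higher (14.8% of all genes), and Lama3 and Itga6 were lower (14.9%). K5H2 and WT libraries were apart for 4, beside 26.9% of all genes, with Dst and Col7a1 higher (12.9%) and Itgb4 and Itga3 lower (14.1%). In K5H2 against Hmga2-/- there were 2, Itga6 and Lama3, both higher, beside 26.4% of all genes (13.8% higher and 12.6% lower). With 9 genes, counts of 2 to 4 are near those shares. The median log2 difference of the 9 was 0.12 in Hmga2-/- against WT, 0.12 in K5H2 against WT and 0.11 in K5H2 against Hmga2-/-.

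The genes split into profiles that run through the single animals. WT 1 deviated from the mean of each gene by 1.11 for Lama3, 1.00 for Itga3, 0.85 for Itga6 and 0.80 for Itgb4 on the log2 scale. In the same animal Col7a1 deviated by -1.77 and Dst by -0.87. Hmga2-/- 3 deviated by 1.41 for Col7a1, 0.75 for Lamb3, 0.70 for Dst, 0.68 for Plec and 0.61 for Col17a1. The wound-type keratinocyte markers Krt6a, Krt6b, Krt16, Krt17 and Sprr1b were also highest in WT 1, with a sum of 1394915 normalized counts. Their sums ran from 119414 to 206944 in Hmga2-/-, from 140726 to 366702 in K5H2 and from 494390 to 1394915 in WT libraries. Of these 5 genes, 4 fell in Hmga2-/- and 1 in K5H2 against WT (limma, adjusted p under 0.05). Of all genes tested, 0.619% in Hmga2-/- and 0.626% in K5H2 were called lower. At an unadjusted p under 0.05, 4 of the 5 were lower in each mutant. In K5H2 the limma adjusted p was 0.061 for Krt6a, 0.0663 for Krt6b and 0.061 for Krt16. Each of the 4 calls in Hmga2-/- missed the threshold without Hmga2-/- 1, without Hmga2-/- 3 and without WT 3. Without WT 1, Krt16 (adjusted p = 0.0809) and Sprr1b (0.111) missed it as well, and Krt6a and Krt6b passed. Sprr1b also missed it with the 2 groups only (0.0588) and without K5H2 3 (0.0528). The call in K5H2, Sprr1b, missed it without WT 1 (adjusted p = 0.118), WT 3 (0.189), Hmga2-/- 1 (0.0648) and each K5H2 library (0.0519 to 0.153). That call also missed it with no filter (0.0549), a mean of at least 50 (0.0518), robust moderation (0.0594), a replicate block (0.0624) and the 2 groups only (0.0656).

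Other marker sums also had WT 1 at an end. The 6 suprabasal markers summed to 1618275 to 3442845 normalized counts in Hmga2-/-, 1360528 to 1979110 in K5H2 and 609320 to 2003329 in WT libraries, with the lowest sum in WT 1 and the highest in Hmga2-/- 3. Langerhans cell markers summed to 8793 to 19470 in Hmga2-/-, 8135 to 12861 in K5H2 and 2521 to 12543 in WT libraries, and T cell markers to 641 to 868, 604 to 1081 and 244 to 987 in the same groups, again lowest in WT 1. Markers of the outer root sheath and bulge summed to 150361 to 319287 in Hmga2-/-, 130751 to 168986 in K5H2 and 34516 to 78125 in WT libraries, mostly from Krt15. Sums for melanocytes were 163 to 435 in Hmga2-/-, 327 to 688 in K5H2 and 257 to 390 in WT libraries, and for Schwann cells 18 to 37 in Hmga2-/-, 22 to 58 in K5H2 and 17 to 37 in WT libraries. Against WT, limma called 0 of 6 suprabasal markers, 0 of 4 each for Langerhans cells, T cells and melanocytes, 0 of the 2 tested for Schwann cells and 0 of 5 for the outer root sheath and bulge in either mutant. At an unadjusted limma p under 0.05 there were 5 of these genes in Hmga2-/- against WT. They were 1 Langerhans cell and 1 T cell marker, both higher, and 3 outer root sheath and bulge markers. Of the 3, Krt15 and Lhx2 were higher and Cd34 lower (-1.18). In that list 2 genes were positive and 3 negative in Hmga2-/-. K5H2 against WT had 3 such genes, 1 suprabasal marker lower and 2 outer root sheath and bulge markers higher. With voom, Krt15 was called in K5H2 and none of the rest. The part of all these markers, wound-type ones included, in the member values was not tested.

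**Figure D3:**
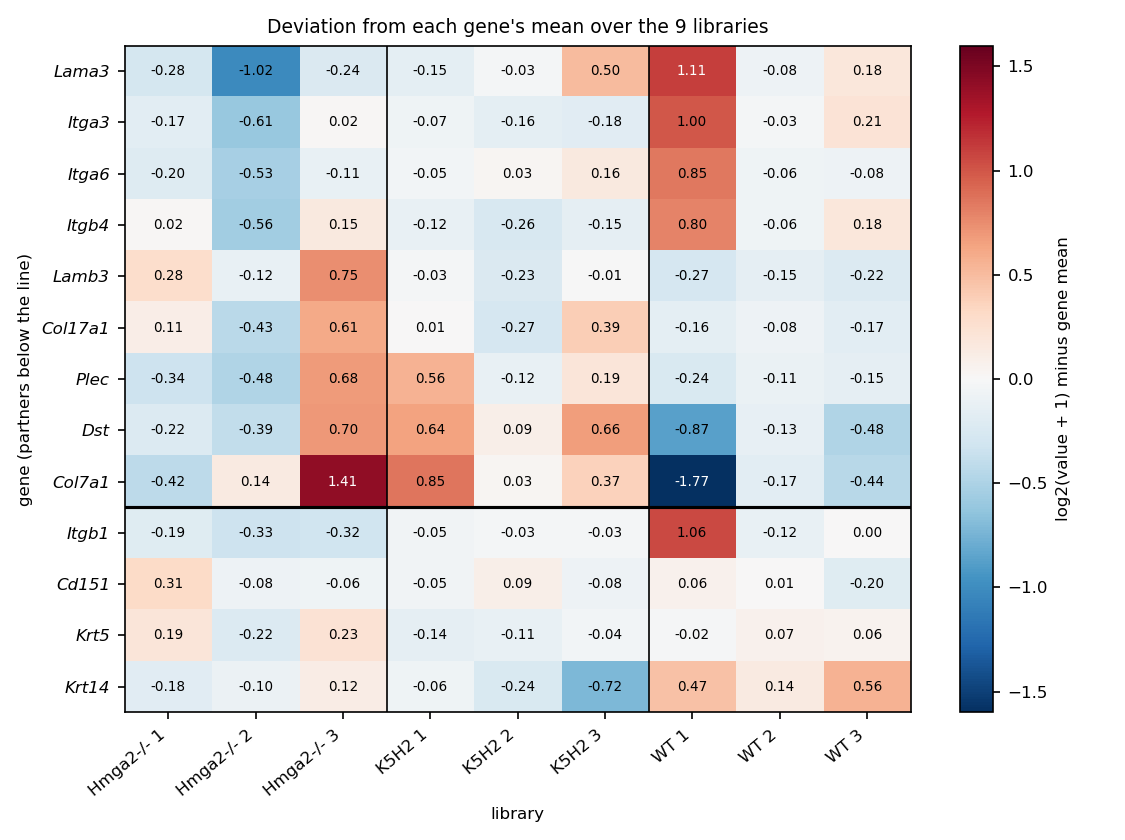
Deviation of each gene from its own mean over the 9 libraries (colour and printed value, log2 scale) for the 9 genes and, under the line, 4 partner genes; columns are Hmga2-/-, K5H2 and WT animals. WT 1 is high for Lama3 (1.11) and low for Col7a1 (-1.77), and Hmga2-/- 3 is high for Col7a1 (1.41).

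Likeness was measured as the mean absolute difference between such centred profiles over 9 libraries, among 10426 genes with a mean of at least 100. Itgb4 and Itga3 were each other's nearest gene, at 0.092, beside a median over all genes of 0.335 for Itgb4. The proteins belong to different integrins. For Itga6 the nearest gene was Flna, which encodes an actin crosslinker, at 0.07. Its receptor partner Itgb4 ranked 326 at 0.165, beside a median over all genes of 0.33 for Itga6. Seen from Itgb4, Itga6 ranked 70. Lama3 was nearest to Prrg4 at 0.09, with Itga6 at rank 43 and Lamb3 at rank 7814. Lamb3 was nearest to Limd1 at 0.09, with Col17a1 at rank 64. Dst was nearest to Utrn at 0.067, and Plec ranked 87. Plec was nearest to Tnrc18 at 0.095, with Col17a1 at rank 86, and Col17a1 was nearest to R3hdm2 at 0.098, with Lamb3 at rank 22. Col7a1 was nearest to Col4a5, a basement membrane collagen, at 0.167, with Dst at rank 54. The second nearest genes were Garem1 for Itga6, Trim16 for Itgb4, Erc1 for Lama3, Zfp219 for Lamb3, Magi1 for Dst, Hnrnpul2 for Plec, Zbtb24 for Col17a1, Ramp3 for Col7a1 and Ptges for Itga3.

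Ratios of 2 members within a library do not depend on how libraries were scaled. They were chosen after the values were seen, and with 3 animals against 3 an exact permutation test cannot go below p = 0.1, so they are a description. The share of other gene pairs with groups apart was not computed, and the part of exon length in these ratios was not tested. Lamb3 over Lama3 was 4.39, 5.54 and 5.9 in Hmga2-/-, 3.26, 2.6 and 2.1 in K5H2 and 1.15, 2.85 and 2.26 in WT keratinocytes. Hmga2-/- animals were all above all K5H2 and WT animals. The mean was 5.28 ± 0.792 in Hmga2-/-, 2.65 ± 0.582 in K5H2 and 2.09 ± 0.865 in WT (SD, n = 3 each).

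For the receptor, Itga6 over Itgb4 was 0.65, 0.753 and 0.763 in K5H2, above 0.529, 0.626 and 0.513 in Hmga2-/- and above 0.638, 0.616 and 0.516 in WT keratinocytes. Of the plakins, Dst over Plec was 1.85, 1.81 and 1.73 in Hmga2-/- and 1.8, 1.97 and 2.36 in K5H2, against 1.1, 1.68 and 1.36 in WT keratinocytes. Both mutant groups were above WT, by little over WT 2. Col17a1 over Itgb4 was 3.92, 4.02 and 5.07 in Hmga2-/- and 4.02, 3.64 and 5.34 in K5H2, against 1.9, 3.63 and 2.91 in WT keratinocytes. Here too both mutant groups were above WT, with K5H2 2 at 3.64 next to WT 2 at 3.63. Of the other ratios computed, Krt5 over Krt14 overlapped in every comparison. Itga6 over Itga3, Col7a1 over Itgb4 and Dst over Itgb4 were apart only in K5H2 against WT, where K5H2 was higher.

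**Figure D4:**
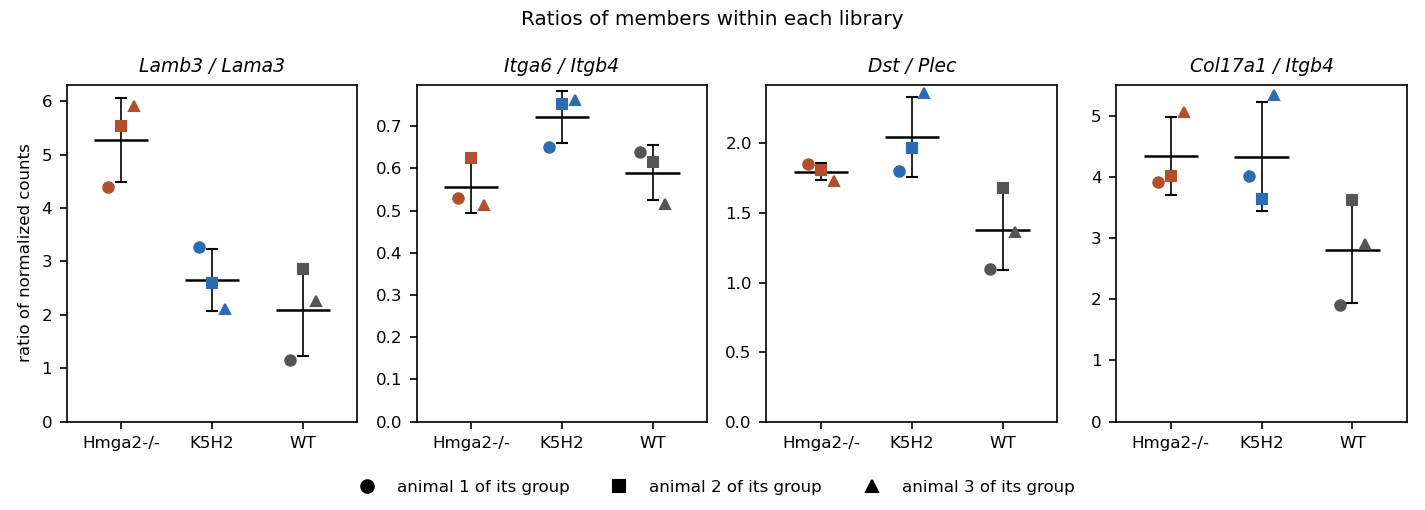
Ratio of normalized counts of 2 members within each library (vertical axis, from 0); points are animals, bars are means and whiskers ± SD (n = 3). Lamb3 over Lama3 is 4.39 or more in every Hmga2-/- animal and 3.26 or less in every K5H2 and WT animal.

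Around the members, 89 other genes of the basement membrane zone were put in 6 lists, and 82 of them were tested. Of these, 0 were called in Hmga2-/- against WT, 2 were called in K5H2 against WT, both higher, and 0 in K5H2 against Hmga2-/-. At unadjusted p under 0.05, 16 were higher and 17 lower in Hmga2-/- against WT, beside 11.4% and 12.3% of all genes tested. The same threshold gave 18 higher and 4 lower in K5H2 against WT, beside 8.81% and 9.23%, and 9 higher and 3 lower in K5H2 against Hmga2-/-, beside 10.4% and 10.7%. Col4a2, which encodes a chain of the collagen IV network, had 275, 230 and 613 normalized counts in Hmga2-/-, 681, 434 and 480 in K5H2 and 131, 137 and 155 in WT keratinocytes. It rose in K5H2 against WT (log2 difference 1.88, SE 0.331, adjusted p = 0.0298). Timp3, which encodes an inhibitor of matrix proteases, had 4543, 3914 and 3756 normalized counts in Hmga2-/-, 4957, 3579 and 3926 in K5H2 and 2630, 2238 and 2332 in WT keratinocytes. It rose in K5H2 against WT (0.78, SE 0.156, adjusted p = 0.0455) and stood at 0.76 in Hmga2-/- against WT (adjusted p = 0.0558). Every animal of both mutant groups was above every WT animal for both genes. Neither was called when K5H2 1, K5H2 2, K5H2 3, WT 1 or WT 3 was left out, where the count over the lists was 0.

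By list, the basement membrane collagens and proteoglycans had the highest medians against WT, at 0.45 in Hmga2-/- (11 of 16 positive) and 0.81 in K5H2 (12 of 16 positive). The other integrin subunits and focal adhesion proteins had a median of -0.32 in Hmga2-/- against WT, with 17 of 24 negative. In K5H2 against WT 12 of 24 were negative, and in K5H2 against Hmga2-/- the median was 0.27 with 21 of 24 positive. Laminin chains and linkers were split 5 and 5 against WT in each mutant, with medians of 0.03 in Hmga2-/- and 0.04 in K5H2. Against WT, membrane partners of the integrins had a median of 0.18 in Hmga2-/- and 0.03 in K5H2. Other plakins and basal keratins had -0.10 in Hmga2-/- and 0.10 in K5H2, and proteases with their inhibitors had 0.12 in Hmga2-/- and -0.05 in K5H2. Over all genes the medians lay within 0.02 of 0.

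Of the dermal cell markers, 1 was called against WT. The 6 fibroblast markers summed to 897, 535 and 236 normalized counts in Hmga2-/-, 3201, 717 and 192 in K5H2 and 61, 96 and 37 in WT libraries. The 4 that were tested, Col1a1, Col1a2, Col3a1 and Dcn, were all higher in both mutants at an unadjusted limma p under 0.05. Of all genes tested, 11.4% were so in Hmga2-/- and 8.81% in K5H2. The median log2 difference of the 4 was 3.049 in Hmga2-/- and 3.655 in K5H2. For each of the 4, every mutant library lay above every WT library. Of these, Col1a2 rose in K5H2 against WT (log2 difference 3.85, adjusted p = 0.0463), but it missed the threshold under voom (adjusted p = 0.106) and without WT 1 (0.109), WT 3 (0.182), K5H2 1 (0.108), K5H2 2 (0.0951) or any Hmga2-/- library (0.0508 to 0.0676). Pdgfra never passed 12 and Lum never passed 16 normalized counts in any library, with Lum listed at 0 in Hmga2-/- 2, WT 1 and WT 3 and Pdgfra at 0 in Hmga2-/- 3. Sums of the endothelial markers were 5 to 14 in Hmga2-/-, 13 to 15 in K5H2 and 13 to 27 in WT libraries, and the endothelial marker Cdh5 was at 0 in 8 of 9 libraries. Muscle markers summed to 16 to 54 in Hmga2-/-, 23 to 55 in K5H2 and 16 to 100 in WT libraries. The part of other cells in the values of Col4a2, Timp3 and Col7a1 was not tested.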

How the data were processed

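RNA of UVB-exposed epidermal keratinocytes was sequenced from 3 animals each of Hmga2-/-, K5H2 and WT mice, with 1 stranded library per animal from polyadenylated RNA, per the labels' protocols. Trim Galore, STAR, DESeq2 and GRCm38 are named in the submitters' processing notes, without versions. The deposited library values are normalized counts, per the file headers, which the authors deposited as whole numbers, and were handled as a score, so no count model was fitted to them. Per the file headers, the authors' own tests come as log2 fold changes and adjusted p-values.

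What 1 read is worth was estimated per library from genes seen in that library alone, of which 97.96% to 100% fell at whole multiples within 0.1 reads. Most values are rounded, so exact reads and counting intervals are not given. limma 3.58.1 in R 4.3.3 (trend, two-sided, 1 mean per genotype, all 9 libraries, no covariate) was run on log2(value + 1) of genes with a value of at least 10 in at least 3 libraries, and calls used a Benjamini-Hochberg adjusted p under 0.05 over 14695 genes. Differences therefore understate changes of low genes. The test planned for raw counts was not used, given the unit. The fit was tested on simulated data. Exon lengths are those of the merged exons of all transcripts of a gene in GENCODE M21. Members and lists were chosen with earlier results of these data known. Named genes were all 9 members, Hmga2, the direct partners Krt5, Krt14, Itgb1 and Cd151 (1 further partner is not reported here), listed genes that were called and, for likeness, the 2 nearest genes of each member. Markers of other cells, fixed likewise, are given as sums. Replicates of a group differed beyond counting noise in every pair. No source used here says whether counting used strand. Alternatives covered scaling, pseudocount, filter, the libraries in the fit, moderation, a block, voom and libraries left out.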

Additional observations from a re-analysis of the deposited data

How the results depend on the processing

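Over 21 alternatives no member passed the threshold in any comparison, and the lowest adjusted p was 0.0705. Of 567 member differences, 543 kept their sign, and 19 of 27 did so throughout. The rest changed sign under some of the alternatives. In Hmga2-/- against WT, Plec was -0.04 with equal totals, -0.03 under voom, -0.28 without both WT 1 and Hmga2-/- 3 and -0.24 to 0.34 with 1 library left out, and Col17a1 was -0.04 without both and -0.02 to 0.50 with 1 left out. In K5H2 against WT, Itga6 was 0.12 and Lama3 0.06 without both, and with 1 left out they spanned -0.34 to 0.12 and -0.54 to 0.06. In K5H2 against Hmga2-/-, Itgb4 was 0.18 with equal totals, 0.18 under voom and 0.09 without both, and Col17a1 was 0.17, 0.16 and 0.20 there. With 1 left out, Itgb4 spanned -0.26 to 0.09, Col17a1 -0.32 to 0.20, Col7a1 -0.36 to 0.56 and Itga3 -0.07 to 0.25. Equal totals moved the median of all genes by -0.16 in Hmga2-/- against WT and by 0.23 in K5H2 against Hmga2-/-. The cause was not tested.

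Of the listed genes, Hmga2-/- against WT gave 1 called with equal totals, a pseudocount of 10 or robust moderation, and 0 to 4 with 1 library left out (4 without WT 2). K5H2 against WT gave 1 with no filter, 1 with the 2 groups only, 5 under voom, and 0 to 2 with 1 left out. With the replicate number as a block, 1 listed gene was called in Hmga2-/- against WT and 0 members in any comparison. Deviations of same-numbered animals from their group means had correlations of -0.217 to 0.209. With 3 animals per group, such values cannot show whether the number pairs animals, and the labels do not say that it does. Depth limits Hmga2-/- 3 most, at 15.4 M reads.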
